A study of Mus musculus with 9 samples.

Results

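The Toll-like receptors and their nearest partners were followed in cultured mouse macrophages as a set of 10 genes, out of 19505 genes with a named probe set on the array. The set held 4 receptors of the cell surface (Tlr1, Tlr2, Tlr4 and Tlr6), 4 receptors of the endosome (Tlr7, Tlr8, Tlr9 and Tlr13), the signalling adaptor Myd88, and Ly96, which encodes the co-receptor MD-2. Members were taken by gene symbol, and each had 1 probe set. The cells were macrophages grown for 7 days from the bone marrow of wild-type C57BL/6 mice, in medium with 10% fetal calf serum and macrophage colony-stimulating factor. The growth protocol gives that factor at 10 ng/ml and the series text at 20 ng/ml. The cells of all 9 arrays then were exposed for 24 h to 20 ng/ml of recombinant murine IL-4 (interleukin 4), so no group was free of IL-4. The treatment was lipocalin 2 (LCN2), which macrophages and neutrophils secrete and which captures iron-carrying siderophores of bacteria. One group received vehicle, another received LCN2 on day 7 at a dose that the labels do not state, and the last received recombinant LCN2 at 150 ng/ml from day 0. Each group was measured on 3 arrays, which the titles number 1 to 3. What the number stands for is not stated. Nor is it stated that arrays within a group are from different mice or different cultures, so p-values here speak of the spread among these arrays alone, and that spread may be technical.

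Toll-like receptors recognise molecules of microbes and start inflammatory gene expression. Those of the macrophage surface bind lipids and lipoproteins: TLR4 with MD-2 (Ly96) binds lipopolysaccharide, and TLR2 pairs with TLR1 or TLR6 to bind acylated lipoproteins. Those of the endosome meet nucleic acids, RNA for TLR7 and TLR13 and unmethylated CpG DNA for TLR9, and depend on the chaperone UNC93B1 to reach that compartment. The adaptor MyD88 couples nearly all of them to IRAK kinases and so to NF-kB, whereas TLR3 signals through the adaptor TRIF (Ticam1).

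Values are log2 expression levels, so a difference of 1 means a doubling, and a positive difference means that the group named first was higher. The 9 arrays had medians between 5.60 and 5.69. All 6 macrophage markers on the array and all 4 IL-4 target genes checked lay above the limit for dim probe sets (a mean of 5.66 over the arrays), whereas the 4 B cell markers all lay below it. The 3 arrays numbered 1 stood apart from the other 6: 33.2% of the 10042 genes tested differed between them. That split, which was known before this set was examined, is described after the treatment groups.

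The 3 promoter windows below belong to the members whose probe sets moved most firmly with the array number: Tlr2, which was higher on the arrays numbered 1, and Tlr1 and Myd88, which were lower. They come from RefSeq on the assembly GRCm38.p6 and run 5′ to 3′ on the strand of the gene, from 250 bases before a transcript start to 50 after it. Capitals mark matches to 3 motifs searched on both strands: GGGA and CC with 4 bases between them for NF-kB, GAAA and GAAA with 2 bases between them for interferon response elements, and GAGGAAG for PU.1, the master regulator of the macrophage lineage. All 3 genes lie on the minus strand.
Tlr2 (chr3:83841559-83841858): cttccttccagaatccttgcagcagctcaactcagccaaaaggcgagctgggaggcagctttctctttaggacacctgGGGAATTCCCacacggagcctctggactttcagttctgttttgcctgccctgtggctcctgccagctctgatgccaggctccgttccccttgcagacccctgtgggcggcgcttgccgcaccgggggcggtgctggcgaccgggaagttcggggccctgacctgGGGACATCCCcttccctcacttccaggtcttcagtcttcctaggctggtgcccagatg
Tlr1 (chr5:64933509-64933808): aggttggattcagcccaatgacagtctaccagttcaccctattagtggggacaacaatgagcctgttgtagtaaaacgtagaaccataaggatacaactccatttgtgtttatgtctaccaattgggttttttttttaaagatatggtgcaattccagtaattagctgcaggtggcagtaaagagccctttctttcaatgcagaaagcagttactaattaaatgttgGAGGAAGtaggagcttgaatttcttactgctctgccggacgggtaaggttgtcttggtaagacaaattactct
Myd88 (chr9:119339969-119340268): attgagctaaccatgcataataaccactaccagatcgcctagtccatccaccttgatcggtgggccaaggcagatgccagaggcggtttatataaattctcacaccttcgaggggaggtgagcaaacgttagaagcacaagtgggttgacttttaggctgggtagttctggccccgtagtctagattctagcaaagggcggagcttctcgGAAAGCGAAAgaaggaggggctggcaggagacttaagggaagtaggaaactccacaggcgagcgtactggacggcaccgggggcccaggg
The Tlr2 window held the NF-kB motif at 2 places, GGGAATTCCC from 172 to 163 bases before the start and GGGACATCCC beginning 8 bases before it. The Tlr1 window printed, chosen because it takes in the outer end of the gene, held GAGGAAG from 23 to 17 bases before the start. The other Tlr1 window of the table (chr5:64932650-64932949) held none of the motifs. The Myd88 window held GAAAGCGAAA from 40 to 31 bases before the start. The windows of Tlr1 and Tlr2 are set on a transcript start that lies inside the annotated gene, and both take in the outer end of that gene. The table held 9 windows for 7 of the 10 members. Of these windows, 1 held the NF-kB motif, 2 the interferon motif, 3 the PU.1 motif and 3 none of them. Over all 32851 windows of the table the shares were 20.7% for NF-kB, 3.44% for the interferon motif and 13.6% for PU.1. The motifs were chosen after the sequences were seen, and Tlr1 and Tlr6 had more than 1 window. Setting these counts beside the shares is therefore not a test. A match describes letters only, and no binding was measured here.

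None of the members tested was seen to move with LCN2 beyond the spread between arrays, and Tlr9 was too dim to be tested. Of the 9 members bright enough to be tested, 0 passed an adjusted p of 0.05 (limma, Benjamini-Hochberg over all 10042 genes tested) in any comparison between groups, and 0 reached an unadjusted p of 0.05. The background was the same: percent called over all genes was 0 for LCN2 on day 7 against vehicle, 0 for LCN2 from day 0 against vehicle and 0 between the LCN2 groups. At an unadjusted p of 0.05 the percentages of all genes were 0.697, 1.41 and 1.76 in the same order. With the array number as a block, that is, with a term for arrays of equal number, 0 members reached it, against 2.58%, 4.95% and 5.37% of all genes. Both LCN2 groups together against vehicle, and an F test over the 3 groups, also called 0 members and 0% of genes. Their percentages at an unadjusted p of 0.05 were 0.677 and 0.966, and 3.11 and 4.04 with the block, with 0 members in each. In bulk RNA, fewer cells of a type and less RNA per cell cannot be told apart. The values of each member follow, by place in the pathway.

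Tlr2 encodes the shared chain of the receptors for bacterial lipoproteins. Its levels were 8.51, 7.44 and 7.32 on vehicle arrays 1 to 3, 8.65, 6.92 and 7.53 with LCN2 on day 7, and 8.45, 7.45 and 7.30 with LCN2 from day 0. In each group the array numbered 1 was the highest, and the 3 groups overlapped fully. Group means were 7.76 ± 0.65, 7.70 ± 0.87 and 7.73 ± 0.63 (SD, n = 3 each), in the same order. The differences from vehicle were -0.06 ± 0.49 (SE) on day 7 and -0.02 ± 0.49 from day 0. The 95% interval for day 7 ran from -1.16 to 1.05, the widest of the members in that fit, and from -0.42 to 0.31 once the array number entered the fit as a block.

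Tlr1 encodes the partner of TLR2 for triacylated lipoproteins. Its levels were 8.71, 9.33 and 9.57 with vehicle, 8.86, 9.39 and 9.44 with LCN2 on day 7, and 8.64, 9.32 and 9.02 with LCN2 from day 0. Here the array numbered 1 was the lowest of each group, and the groups overlapped. The mean was 8.99 ± 0.34 with LCN2 from day 0 against 9.20 ± 0.45 with vehicle, a difference of -0.21 ± 0.26 (SE), of which the pair numbered 3 gave -0.55 and the other pairs -0.06 and -0.02.

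Tlr6, the partner of TLR2 for diacylated lipoproteins had a mean close to the limit for dim probe sets. Its levels were 6.00, 6.18 and 6.35 with vehicle, 5.85, 5.98 and 6.19 with LCN2 on day 7, and 5.64, 6.29 and 5.64 with LCN2 from day 0. The groups overlapped, and arrays 1 and 3 of the day 0 group were the lowest of all. The difference from vehicle was -0.32 ± 0.19 (SE) for LCN2 from day 0, with pairs at -0.36, 0.12 and -0.71. For LCN2 on day 7 it was -0.17 ± 0.19, with pairs at -0.15, -0.20 and -0.17. Tlr6 was the 1 member whose day 7 pairs all had the same sign, against 21.7% of all genes tested. Tlr1 and Tlr6 are close paralogs that neighbour each other on chromosome 5 (Tlr1 at chr5:64924680-64933600 and Tlr6 at chr5:64953092-64970942, GRCm38.p6), and cross-hybridisation between their probes was not tested.

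Tlr4 encodes the lipopolysaccharide receptor. Its levels were 9.58, 10.19 and 10.27 with vehicle, 9.78, 9.68 and 10.29 with LCN2 on day 7, and 9.65, 10.33 and 9.99 with LCN2 from day 0. The groups overlapped, and their means of 10.01 ± 0.38, 9.92 ± 0.32 and 9.99 ± 0.34 (SD, n = 3 each) lay within a small part of the spread inside any group. The differences from vehicle were -0.10 ± 0.25 (SE) and -0.02 ± 0.25.

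Ly96 encodes MD-2, the part of the TLR4 complex that holds the lipid. Its levels were 11.38, 11.20 and 11.08 with vehicle, 11.37, 11.18 and 11.25 with LCN2 on day 7, and 11.65, 11.40 and 11.25 with LCN2 from day 0. The day 0 array of each number was above the vehicle array of that number, although the groups as wholes overlapped. The day 0 difference from vehicle was 0.21 ± 0.14 (SE), with pairs at 0.27, 0.20 and 0.17. With the array number as a block, Ly96 had the smallest p of the members in that comparison (unadjusted p = 0.0518, adjusted p = 0.960 by limma). Ly96 with LCN2 on day 7 stood at 0.04 ± 0.14 from vehicle.

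**Figure D1:**
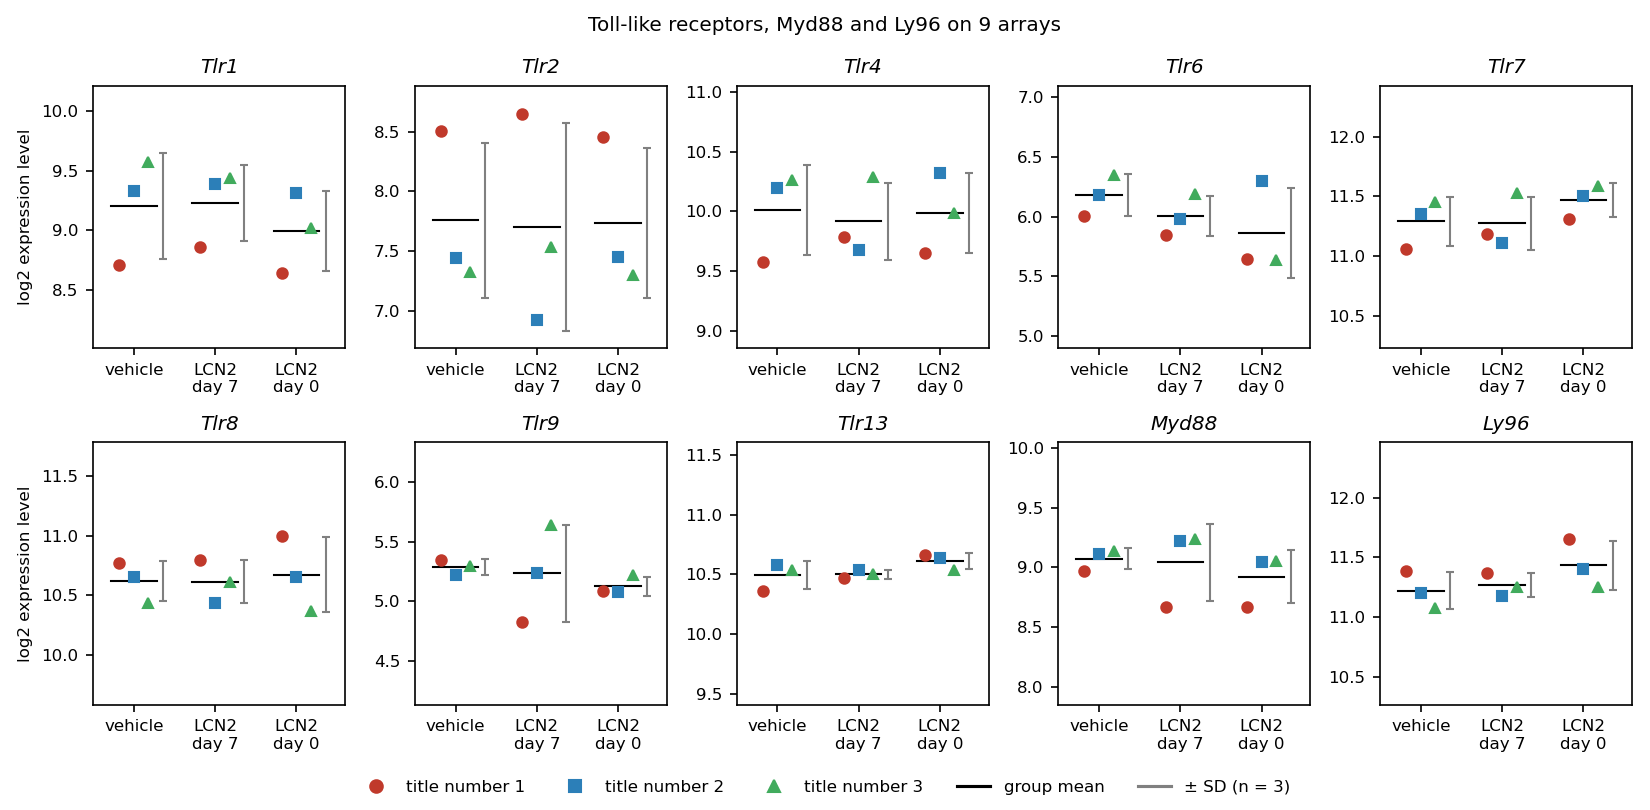
Log2 expression level of each of the 10 genes on the 9 arrays, with a panel for each gene, the treatment group on the x axis and the title number as colour and shape. Black lines are group means and grey bars are ± SD (n = 3). The y axes span equal widths but begin at different levels. The red points of Tlr2 lie highest and those of Tlr1 lowest in every group, while the group means of a gene lie close together.

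Among the endosomal receptors, Tlr7 encodes a receptor for single-stranded RNA. Its levels were 11.06, 11.35 and 11.46 with vehicle, 11.19, 11.11 and 11.53 with LCN2 on day 7, and 11.31, 11.51 and 11.59 with LCN2 from day 0. Each day 0 array was above the array of equal number in both other groups, but the groups overlapped. The day 0 difference was 0.18 ± 0.16 (SE) from vehicle and 0.20 ± 0.16 from LCN2 on day 7. With the block, the interval of the first was -0.06 to 0.42 (95%).

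Tlr8, whose human product binds RNA breakdown products, is the neighbour of Tlr7 on the X chromosome (Tlr8 at chrX:167241123-167264329 and Tlr7 at chrX:167303380-167330574). Its levels were 10.77, 10.65 and 10.44 with vehicle, 10.79, 10.43 and 10.61 with LCN2 on day 7, and 10.999, 10.65 and 10.37 with LCN2 from day 0. The array numbered 1 was the highest of each group, and the groups overlapped. The differences from vehicle were -0.01 ± 0.18 (SE) and 0.05 ± 0.18.

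Tlr13 encodes a receptor for bacterial ribosomal RNA. Its levels were 10.36, 10.58 and 10.54 with vehicle, 10.47, 10.54 and 10.50 with LCN2 on day 7, and 10.66, 10.64 and 10.54 with LCN2 from day 0. Over the 9 arrays it varied least of the 10 members, with a range of 0.30 against 1.73 for Tlr2. The day 0 difference from vehicle was 0.12 ± 0.10 (SE), most of it from the pair numbered 1 (0.30).

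Tlr9 encodes the receptor for CpG DNA. Its levels were 5.35, 5.22 and 5.30 with vehicle, 4.83, 5.23 and 5.64 with LCN2 on day 7, and 5.09, 5.08 and 5.22 with LCN2 from day 0. Its mean over the arrays, 5.22, lay below the limit for dim probe sets, so the values here come from a fit that kept all genes. All day 0 arrays lay below all vehicle arrays (before rounding), with a difference of -0.16 ± 0.18 (SE). Tlr9 was the 1 member whose groups did not overlap in that comparison, but it was not among the genes tested. Of the 9 tested members 0 were free of overlap there, against 5.49% of the genes tested, 3.44% with the day 0 group lower. For LCN2 on day 7 against vehicle, and between the LCN2 groups, 0 members were free of overlap, against 3.17% and 5% of the genes tested. At such a level the probe set is among the dim ones of the array, and the gap was not beyond the error of the fit (unadjusted p = 0.395).

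Myd88 encodes the adaptor. Its levels were 8.97, 9.12 and 9.13 with vehicle, 8.67, 9.22 and 9.24 with LCN2 on day 7, and 8.66, 9.05 and 9.05 with LCN2 from day 0. The groups overlapped, and the array numbered 1 was the lowest of each. Each day 0 array was below the vehicle array of equal number, by 0.31, 0.07 and 0.08. The differences from vehicle were -0.15 ± 0.18 (SE) for LCN2 from day 0 and -0.03 ± 0.18 for LCN2 on day 7, where the pairs stood at -0.30, 0.11 and 0.10.

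Across the set, the median size of the difference was 0.04 for LCN2 on day 7 and 0.16 for LCN2 from day 0 against vehicle, and 0.12 between the LCN2 groups. Over all genes tested it was 0.07, 0.08 and 0.09. Differences had the same sign in all 3 pairs of equal number for 1, 6 and 5 of the 10 members, against 21.7%, 27.3% and 20.9% of all genes tested. The medians and counts of the members take in the dim Tlr9, which is among the 6 but not among the genes tested. The comparisons share arrays, so these counts do not stand apart from each other. With the array number as a block, the 95% intervals of the members together reached from -0.69 to 0.43 for LCN2 from day 0 against vehicle and from -0.54 to 0.31 for LCN2 on day 7.

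**Figure D2:**
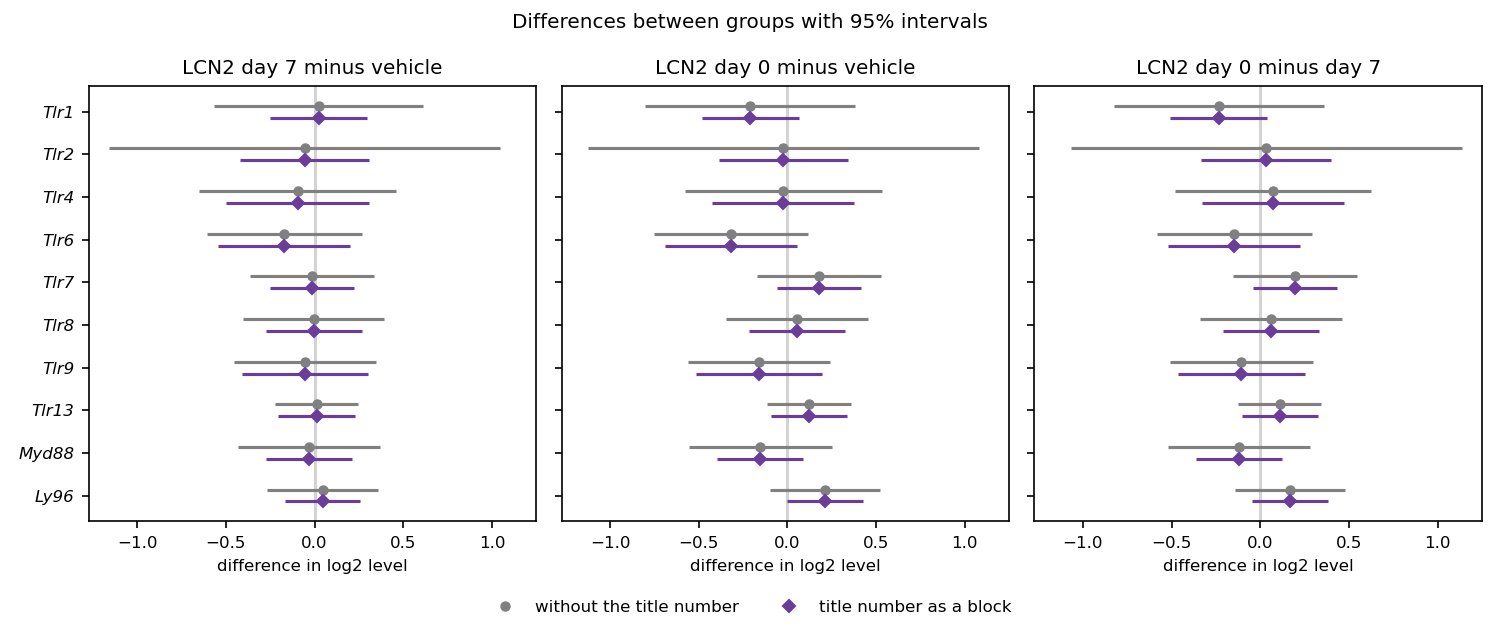
Differences in log2 level between groups for the 10 genes, in 3 panels for LCN2 on day 7 minus vehicle, LCN2 from day 0 minus vehicle, and LCN2 from day 0 minus day 7. Points are differences and lines are 95% intervals, in grey without the title number and in purple with it as a block. Every interval takes in 0, and the purple lines are shorter, most of all for Tlr2.

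The receptors of the surface and of the endosome were set side by side as each gene's deviation from its own mean over the 9 arrays, averaged over the 4 genes of a class, so that no probe set's level was compared with another's. For the surface class this mean was -0.02, 0.07 and 0.16 on vehicle arrays 1 to 3, 0.07, -0.22 and 0.15 with LCN2 on day 7, and -0.12, 0.13 and -0.23 with LCN2 from day 0. For the endosomal class the values on the vehicle arrays lay between -0.05 and 0.02. They were -0.11, -0.10 and 0.14 with LCN2 on day 7, and ran from -0.00 to 0.08 with LCN2 from day 0. Neither class separated the groups. Surface minus endosomal was 0.03, 0.05 and 0.17 with vehicle, 0.18, -0.12 and 0.01 with LCN2 on day 7, and -0.20, 0.10 and -0.22 with LCN2 from day 0. With LCN2 from day 0, all 4 surface receptors were below vehicle in the mean. The 3 endosomal receptors above the dim limit were above vehicle, while the dim Tlr9 was below it (-0.16), so the classes did not split fully. None of the differences tested passed. Several lay near 0: Tlr2 at -0.02 ± 0.49 (SE), Tlr4 at -0.02 ± 0.25 and Tlr8 at 0.05 ± 0.18. When 1 array was left out, these ran from -0.38 to 0.35, -0.24 to 0.14 and -0.11 to 0.21, so their signs turned. Those of Tlr1, Tlr6, Tlr7 and Tlr13 did not turn. The surface mean also joins genes that ran in opposite directions with the array number, Tlr2 upward and Tlr1 downward on the arrays numbered 1, so it hides the largest difference in the set.

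**Figure D3:**
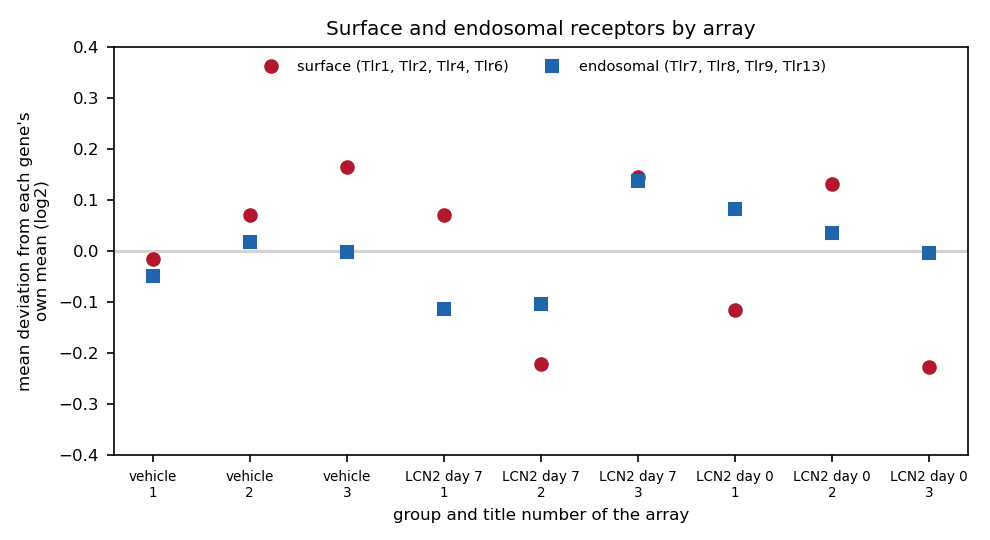
Mean deviation (log2) of the 4 surface receptors (red circles) and the 4 endosomal receptors (blue squares) from each gene's own mean, on each of the 9 arrays by group and title number. Surface values run from -0.23 to 0.16 and endosomal values from -0.11 to 0.14, and neither orders the arrays by treatment.

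Other genes of the pathway were read from 7 lists with 51 genes, of which 45 were on the array and 40 were bright enough to test. None passed in a comparison between groups (0 of 40 in each). The smallest p with LCN2 from day 0 belonged to Tab1, which encodes a subunit that activates the kinase TAK1. Tab1 stood at 7.05, 7.33 and 7.23 with vehicle, 7.09, 7.18 and 7.30 with LCN2 on day 7, and 6.63, 6.98 and 6.93 with LCN2 from day 0. All day 0 arrays of Tab1 lay below all arrays of the other groups. Over all genes tested, 3.44% had the day 0 group wholly below vehicle, and 5% had no overlap between the LCN2 groups in either direction. The Tab1 difference from vehicle was -0.36 ± 0.13 (SE, unadjusted p = 0.026, adjusted p = 0.999 by limma), and -0.34 ± 0.13 from LCN2 on day 7. Tab1 was the 1 gene of the 40 under an unadjusted p of 0.05 against vehicle, where 1.41% of all genes were. Next in the day 0 comparison came the TLR inhibitor Sigirr at 0.20 ± 0.12, the ubiquitin ligase Traf6 at 0.22 ± 0.15, Cnpy4 (a chaperone for surface TLRs) at -0.23 ± 0.17 and the adaptor Ticam1 at -0.17 ± 0.15. Sigirr lay at the dim limit: 5.54 to 5.66 with vehicle, 5.46 to 5.70 with LCN2 on day 7, and 5.65 to 5.94 with LCN2 from day 0. Its mean passed the limit of 5.66 only through the day 0 arrays, so its place in these rankings is not evidence of a change. With LCN2 on day 7 the first were Tab2, a further TAK1 partner, at -0.15 ± 0.12, the endolysosomal transporter Slc15a4 at 0.19 ± 0.19, the adaptor Tirap at -0.11 ± 0.12, Ly86 (MD-1) at -0.12 ± 0.13 and Ticam1 at -0.13 ± 0.15. Between the LCN2 groups, after Tab1, they were Sigirr at 0.22 ± 0.12, Cnpy4 at -0.26 ± 0.17, Slc15a4 at -0.27 ± 0.19 and Tab2 at 0.16 ± 0.12. With both LCN2 groups joined against vehicle, Tab1 stood at -0.19 ± 0.12, Traf6 at 0.15 ± 0.13, Ticam1 at -0.15 ± 0.13, Ly86 at -0.11 ± 0.11 and Sigirr at 0.09 ± 0.10.

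By array number, the set split. On the arrays numbered 1, against those numbered 2 and 3 within each group, Tlr2 was 2.31-fold higher, Tlr8 and Ly96 were higher, and Tlr1 and Myd88 were lower. In all, 5 of the 9 tested members passed (3 higher and 2 lower), where 33.2% of all genes tested did, 11% higher and 22.1% lower. The background is large and the set small, and whether the count differs from the background was not tested. The contrast was chosen with it known that the arrays numbered 1 differ from the rest.

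Tlr2 lay between 8.45 and 8.65 on the 3 arrays numbered 1 and between 6.92 and 7.53 on the other 6, with no overlap. The difference was 1.21 ± 0.14 (SE, adjusted p = 0.000655 by limma), and within groups it was 1.12 with vehicle, 1.42 with LCN2 on day 7 and 1.08 with LCN2 from day 0. Its partner Tlr1 went the other way. Tlr1 lay between 8.64 and 8.86 on arrays numbered 1 and between 9.02 and 9.57 on the rest, also with no overlap, a difference of -0.61 ± 0.10 (1.52-fold lower, adjusted p = 0.00344), with -0.75, -0.55 and -0.52 within the groups. Tlr6, the other partner, stood at -0.27 ± 0.14 (adjusted p = 0.167), below 0 in all 3 groups, and passed in 1 fit, without the LCN2 day 0 array numbered 3 (adjusted p = 0.0333).

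Myd88 was lower on the arrays numbered 1 by 0.37 ± 0.09 (1.29-fold lower, adjusted p = 0.0170), with levels of 8.66 to 8.97 against 9.05 to 9.24 and no overlap. The gap was 0.16 with vehicle, 0.56 with LCN2 on day 7 and 0.39 with LCN2 from day 0. This call was lost without the LCN2 day 7 array numbered 1 and without the LCN2 day 0 array numbered 1, with adjusted p at most 0.0881.

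Tlr8 was higher by 0.33 ± 0.10 (1.25-fold, adjusted p = 0.0396), without overlap, and Ly96 by 0.24 ± 0.08 (1.18-fold, adjusted p = 0.0487), with overlap. Both calls lay close to the threshold, and each was lost in 8 of the 9 fits that left out 1 array, all but the fit without the LCN2 day 7 array numbered 3. Tlr4 was at -0.45 ± 0.15 (adjusted p = 0.0511), and Tlr7 at -0.24 ± 0.09 (adjusted p = 0.0762). Tlr4 passed without the LCN2 day 7 array numbered 2 or the LCN2 day 0 array numbered 3, and Tlr7 without the LCN2 day 7 array numbered 2. Tlr13 did not move beyond its error, at -0.06 ± 0.08 (adjusted p = 0.597), and Tlr9 stood at -0.19 ± 0.14 in the fit that kept all genes. No overlap between the 3 and the 6 arrays was seen for 4 members (2 higher and 2 lower), against 35.4% of all genes tested (11.8% higher and 23.6% lower). An F test over the 3 numbers, which does not single out number 1 and was added after the data were seen, called Tlr2 (adjusted p = 0.00224 by limma) and Tlr1 (adjusted p = 0.0112) and 23% of all genes. Between numbers 2 and 3, 0 of the 9 tested members passed, 0 reached an unadjusted p of 0.05, and percent called over all genes was 0, with 3.09% at that unadjusted p. The pathway genes with the smallest p there were Irf5 at 0.39 ± 0.10 (adjusted p = 1.00 by limma), Cnpy4 at -0.21 ± 0.11, Nfkbia at 0.13 ± 0.09, Tab2 at 0.12 ± 0.09 and Cyld at -0.17 ± 0.13.

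**Figure D4:**
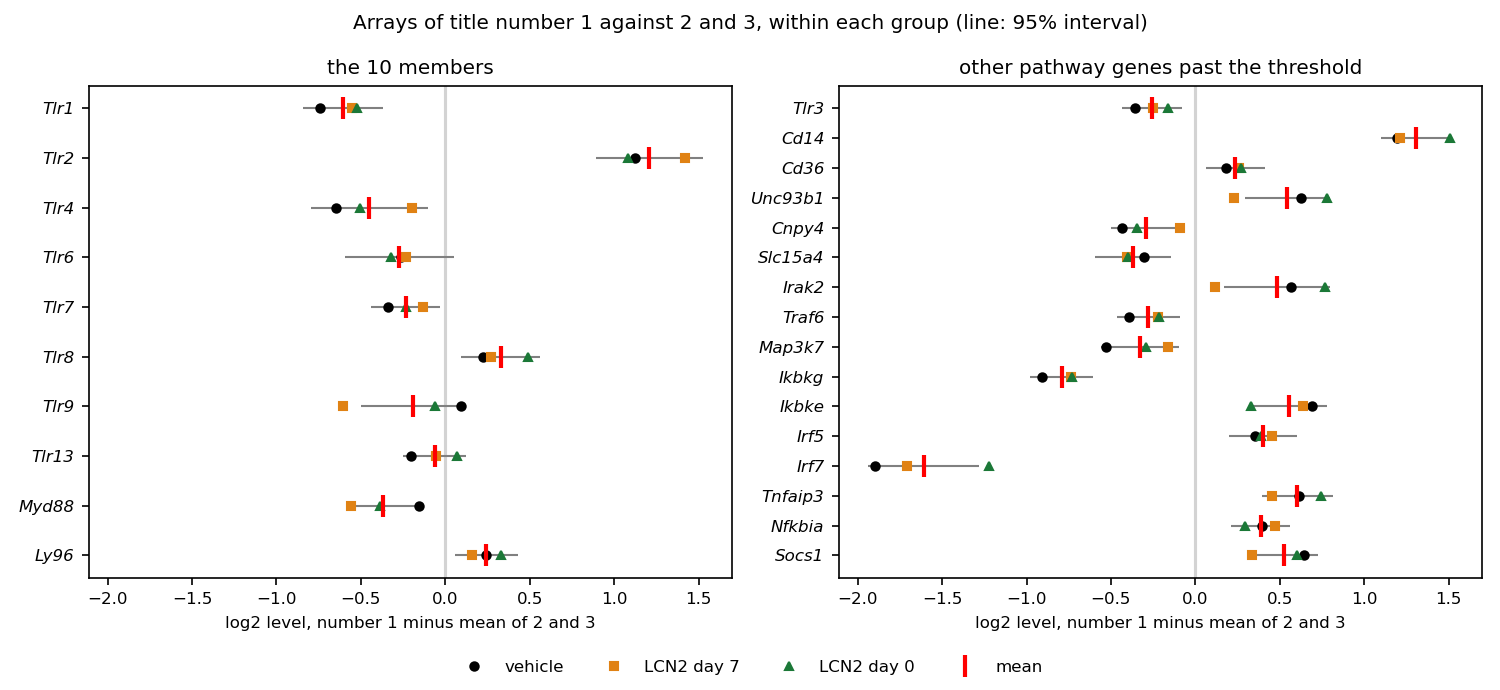
Log2 level on the array numbered 1 minus the mean of those numbered 2 and 3, for the 10 members (left) and for the other pathway genes past the threshold (right). Points are the values within the vehicle, LCN2 day 7 and LCN2 day 0 groups, red ticks are their mean and grey lines are 95% intervals. Tlr2 (1.21) and Cd14 (1.30) lie far to the right and Irf7 (-1.61) far to the left, with the 3 groups on the same side of 0 for each gene named.

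Of the 40 other pathway genes tested, 9 were higher and 7 lower on the arrays numbered 1, against 33.2% of all genes called there (11% higher and 22.1% lower). Higher calls outnumbered lower ones in these lists, the reverse of all genes. Whether the lists differ from the background was not tested. The smallest p belonged to Cd14, which encodes the co-receptor that hands lipopolysaccharide to TLR4 with MD-2 and also serves TLR2. Cd14 stood at 8.93, 9.001 and 9.45 on the arrays numbered 1 of the vehicle, day 7 and day 0 groups, and at 7.69 to 8.05 on the rest. The difference was 1.30 ± 0.09 (2.47-fold, adjusted p = 8.00e-05). Irf7, a transcription factor downstream of the endosomal receptors and an interferon target, moved the other way, from 6.91 to 7.81 on numbers 2 and 3 to 5.57 to 5.85 on number 1. The difference was -1.61 ± 0.14 (3.05-fold lower, adjusted p = 0.000231). Ikbkg, the regulatory subunit NEMO of the IKK complex, was lower by 0.79 ± 0.08 (adjusted p = 0.000452).

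By role, 2 of 4 co-receptors were higher and 0 lower, and 3 of 9 negative regulators were higher and 0 lower. The lists are short, and whether any role differs from the 33.2% called over all genes was not tested. The 3 negative regulators were Tnfaip3 (A20) at 0.60 ± 0.09 (adjusted p = 0.00221), Socs1 at 0.53 ± 0.09 (adjusted p = 0.00289) and Nfkbia, the NF-kB inhibitor, at 0.39 ± 0.08. Of the 5 trafficking genes, Unc93b1 was higher at 0.54 ± 0.11, with arrays numbered 1 at 10.80, 10.49 and 10.75 and the others at 9.93 to 10.29, while Slc15a4 (-0.37 ± 0.10) and Cnpy4 (-0.29 ± 0.09) were lower. Of 11 kinases, kinase partners and ligases, Ikbke (0.55 ± 0.10) and Irak2 (0.48 ± 0.14) were higher, and Ikbkg, Traf6 (-0.28 ± 0.08) and Map3k7 (TAK1, -0.33 ± 0.10) were lower. Of 6 transcription factors, Irf5 was higher at 0.40 ± 0.09 and Irf7 lower. None of the 4 other adaptors tested passed. The co-receptor and scavenger receptor Cd36 was higher at 0.24 ± 0.08. Tlr3, the RNA receptor that needs no MyD88, was lower at -0.26 ± 0.08 (adjusted p = 0.0366). Tlr5, Tlr11 and Tlr12 lay below the dim limit on every array, at 3.07 to 3.81, 3.55 to 3.91 and 3.96 to 4.73. Apart from Cd14, Irf7, Ikbkg, Tnfaip3 and Socs1, these genes were named after their values were seen. Some of their calls rested on single arrays: of the 9 fits that left out 1 array, Cd36 passed in 0, Tlr3 in 2, Map3k7 in 3, Irak2, Traf6 and Cnpy4 in 4 each, Slc15a4 in 5 and Unc93b1 in 8, and the other 8 of the 16 genes in all 9.

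Markers of cell state moved with the same split. Between the treatment groups 0 of them passed, as did 0% of all genes. The 6 tested neutrophil markers were all above vehicle, with a median difference of 0.45 for LCN2 on day 7 and 0.48 from day 0. Of the 9 cell cycle genes, 9 were above vehicle on day 7, and 7 were above and 2 below from day 0. Monocyte markers were 2 above and 2 below in both. The counts by array number are read against 22.1% of all genes lower and 11% higher on the arrays numbered 1. There, 8 of 9 cell cycle genes were lower, their summed log2 level lying between 68.8 and 75.04 against 78.1 to 81.4. All 6 tested neutrophil markers were lower (summed level over the 7 on the array 41.2 to 47.0 against 52.2 to 55.5), as were 3 of 4 monocyte markers, with the other one higher (27.3 to 29.4 against 30.1 to 31.6). Of 6 macrophage markers, 2 were higher and 1 lower (64.0 to 64.2 against 63.3 to 64.3). Of 4 IL-4 target genes, 2 were higher and 1 lower (48.0 to 48.6 against 46.0 to 47.6). The markers of B cells (0 of 4), plasmacytoid dendritic cells (1 of 5) and conventional dendritic cells (1 of 6) lay mostly below the dim limit, as the counts of those above it show. The conventional dendritic marker above it, Itgax, which macrophages also express, was higher at 0.70 ± 0.11. Whether these shifts take part in the differences of Tlr2, Tlr1, Myd88 or the other members was not tested, and nor was what the array number marks.

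The genes nearest to each member over the 9 arrays, by Pearson correlation of log2 levels, changed with the handling of the array number. The closest match was Nsun2 for Tlr1 (r = 0.995 over 9 arrays), which was also its nearest gene after the mean of each number was taken away (r = 0.994). Ado was nearest to Tlr6 both ways (r = 0.967 and 0.986). For the other 8 members the nearest gene differed: for Tlr2 it was Pex16 (r = 0.978) and then Zfp346 (r = 0.998), for Tlr4 Mpp1 (r = 0.989) and then Chd9 (r = 0.993), and for Myd88 Cdc16 (r = 0.982) and then Ccl22 (r = 0.991). For Ly96 they were Tmem131 (r = 0.953) and Smpdl3a (r = 0.995), for Tlr7 Clec4e (r = 0.965) and Azin2 (r = 0.981), and for Tlr8 Ammecr1l (r = 0.978) and Ccnt1 (r = 0.982). For Tlr9 they were Znhit3 (r = 0.972) and Il6st (r = 0.983), and for Tlr13 Kctd21 (r = 0.939) and Plek (r = 0.969). Each is the highest of very many correlations over few arrays that share the split by number, so they are a description, and no p is given. Among the members themselves, 23 of 45 pairs correlated above 0 and 22 below.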

How the data were processed

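RNA was isolated on columns, amplified with a kit for small inputs and labelled with biotin, per the labels' protocols. The table of 22203 probe sets holds log2 levels, as deposited, made by the authors with RMA in the R package oligo, per the submitters' processing notes, which give no versions. RMA corrects background, evens the probe distributions of the arrays and summarises each probe set, so a shift common to all probes cannot be seen. Probe sets with 1 symbol (19572) were matched to RefSeq by Entrez identifier, and the highest-mean probe set was kept for each of 19505 genes. Genes with a mean below 5.66, the median of the probe-set means, were left out, leaving 10042. The fits used limma 3.58.1 (R 4.3.3) on all 9 arrays, with a mean for each group. Array numbers were compared with group as a term. Benjamini-Hochberg adjustment covered every gene tested, and 0.05 was the threshold. The fits were tested on simulated data. For the group fit these held independent noise and no effect of the array number, so they do not show how that fit performs with the split. Arrays of equal number deviated together from their group means (9 of 9 correlations above 0.1, from 0.16 to 0.82), so the number in the titles was taken to pair them and was an alternative block. All 6 pairs of unequal number among arrays 2 and 3 were also above 0.1 (0.20 to 0.69), so the check separates number 1 from the rest and does not show that 2 and 3 pair. Arrays carry no counts, and their number limits the precision. The members and lists were chosen with earlier results of these data known, and the motifs after the sequences were seen. Named genes were all members, the 5 pathway genes with the smallest p in each comparison and the gene best correlated with each member, and others are said to be chosen later.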

Additional observations from a re-analysis of the deposited data

How the results depend on the processing

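No comparison between treatment groups gained a call: 0 of the members and 0 genes passed in each of 18 alternatives, among them no filter, a stricter filter at the 75th percentile, centred arrays, array weights, each array left out and the arrays numbered 1 left out. The replicate block also gave 0 members and 0 genes, so pairing by array number changed no call. Signs were less stable: 28 of 160 values turned for LCN2 on day 7 against vehicle, 11 of 160 for LCN2 from day 0, 11 of 160 between the LCN2 groups and 21 of 160 for both joined, none of them called. Many of the 160 could not turn. The filters, the variance settings, the mean of probe sets and the replicate blocks leave a difference unchanged. So does leaving out an array of a group not compared. The shares therefore understate how unstable the signs were. When 1 array was left out, Tlr2 ranged from -0.53 (without the LCN2 day 7 array numbered 1) to 0.33 (without that numbered 2) for LCN2 on day 7, from -0.38 to 0.35 for LCN2 from day 0 (without the day 0 and the vehicle array numbered 1), and from -0.36 to 0.51 between the LCN2 groups. Myd88 for LCN2 on day 7 ranged from -0.13 to 0.16 when 1 array was left out (-0.03 with all arrays). It turned without the LCN2 day 7 array numbered 1. For number 2 minus 3 such ranges were -0.13 to 0.13 for Tlr1, -0.25 to 0.12 for Tlr2, -0.30 to 0.13 for Tlr4 and -0.13 to 0.21 for Tlr6.

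For the arrays numbered 1, 5 members passed with all arrays, 3 with no filter, 7 with trended and robust variances, and 2, Tlr1 and Tlr2, by an F test over the 3 numbers that was chosen after seeing the data. Leaving out 1 array gave 2 to 5 members and 1777 to 3612 genes, against 3333. The count of members was 3 without the vehicle array numbered 1, 2 or 3 or the LCN2 day 0 array numbered 2, and 2 without the LCN2 day 7 or day 0 array numbered 1. The gene count was 1777 without the vehicle array numbered 1 and 1923 without the LCN2 day 0 array numbered 1. Tlr1 passed in 16 of 16 alternatives and Tlr2 in 15 of 15, Myd88 in 13 of 16, Tlr8 in 5 of 16 and Ly96 in 4 of 16. Of the tested members not called, Tlr4 passed in 6 of 16, Tlr7 in 3 of 16, Tlr6 in 1 of 15 and Tlr13 in 0 of 16. The calls of Tlr8 and Ly96 were thus no firmer than the result of Tlr4. The causes of the lost calls were not tested. With 3 arrays a group, the 95% intervals bound what could be seen. Without the block, those of the members together reached from -1.16 to 1.05 for LCN2 on day 7 against vehicle. For LCN2 from day 0 they reached from -1.13 to 1.08. The block intervals above are narrower, but they rest on a pairing by number that was not shown for arrays 2 and 3.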
